A study of Mus musculus with 20 samples.

Results

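The cholesterol and fatty acid synthesis genes are a set of 28 genes chosen by name from the gene count table of 10 mouse kidney tumors and 10 normal kidneys, which lists 54532 genes. They comprise 8 enzymes that lead from acetyl-CoA to squalene, 10 enzymes that turn squalene into cholesterol, 4 genes of the SREBP factors and their sterol control, and 6 enzymes of fatty acid synthesis. All 28 passed the filter on low counts, which left 15354 genes. The tumors arose in Cre-less AAV mice. These are C57BL/6 mice of the genotype LSL-Cas9/+; Pax8 Cre/+, in which Pax8-expressing cells make Cas9 and whose kidneys received an adeno-associated virus carrying sgRNAs for Vhl, Pbrm1, Keap1 and Tsc1. Normal kidneys were collected from the same cohort of mice, so that they carried the Cas9 and Pax8 Cre alleles as well. The injection methods of the study name mice of both sexes, and the labels do not give the sex of each mouse. The ages of the mice at collection and the place of the normal tissue relative to the injection are not given in the sources used here. Each library was made from poly(A) RNA of bulk tissue, and a tumor can hold cells that escaped editing. Fewer cells of a type and less RNA per cell cannot be told apart in such samples.

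Cholesterol is built from acetyl-CoA through mevalonate, the isoprenoid farnesyl diphosphate, squalene and lanosterol, and fatty acids are built from acetyl-CoA by way of malonyl-CoA. Both routes are switched on by the sterol regulatory element-binding proteins (SREBPs), which are held in the endoplasmic reticulum by INSIG proteins when sterols are plentiful and move to the nucleus after cleavage when sterols run low. SREBP2, the product of Srebf2, acts mainly on sterol enzymes, and SREBP1, the product of Srebf1, mainly on fatty acid enzymes. Clear cell kidney tumors are known for stored cholesteryl ester and triglyceride. The study describes the tumors of these mice as mainly eosinophilic cells, with clear cells scattered among them.

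Total counts ranged from 18447394 to 24902973 in tumors and from 14737516 to 26679704 in normal kidneys. Levels are CPM, read counts scaled to library size with TMM factors. Log2 fold changes are tumor minus normal kidney, each with its standard error, from the quasi-likelihood test of edgeR, with p-values adjusted over all genes tested (Benjamini-Hochberg). Vhl mRNA was 12.3 to 28.6 CPM (median 17.9) in tumors and 21.6 to 28.8 CPM (median 25.9) in normal kidneys, and was called lower. Of the other edited genes Tsc1 was lower, Keap1 was higher, with every tumor above every normal kidney, and Pbrm1 did not pass. Small insertions and deletions need not lower an mRNA, so these levels do not check the labels. Defining markers of the loop of Henle and collecting duct were low in tumors. Umod was at most 5.46 CPM and Aqp2 at most 0.299 CPM there, but Aqp3, of the collecting duct, reached 23.6 CPM in tumor 7, against 36.8 to 135 in normal kidneys. Of 9 proximal tubule markers, 3 were lower in tumors and 0 were higher, beside 23.8% lower and 23.6% higher among all genes tested. Tumor 7 stood apart: of the tumors it had the lowest summed proximal tubule markers (1132 CPM, others from 3101), and the highest macrophage (1460.2 CPM, others up to 703), fibroblast (3744 CPM, others up to 446) and adipocyte markers (398 CPM, others up to 169). It was the lowest tumor for 19 of the 28 genes. Normal kidney 9 had the smallest scaling factor and was the lowest normal kidney for 12 of them. Normal kidneys 5, 7 and 8 carried between 26231 and 44332 CPM of the injury gene Spp1, against at most 4054 in the other 7. Xist, the noncoding RNA made from the inactive X chromosome of female cells, was at 432 to 755 CPM in the libraries numbered 2 to 6 of both groups and at most 2.39 CPM in the other 5 of each group.

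Of the 28 genes, 9 were higher and 2 lower in tumors (adjusted p under 0.05). Among all genes tested, 23.6% were higher and 23.8% were lower by the same rule, beside 32.1% and 7.14% of the set. The median log2 fold change was 0.30 over the set and -0.02 over all genes. The set did not move as a block. The 9 higher genes were Mvd, Fdps, Sqle, Msmo1, Hsd17b7, Sc5d, Insig1, Acaca and Scd2, and the 2 lower genes were Pmvk and Cyp51. Scd2 alone had every tumor above every normal kidney, a pattern shown by 5.87% of all genes, and no member had every tumor below every normal kidney, against 4.74% of all genes. Among the 17 genes that did not pass, 2 had an unadjusted p under 0.05. Leaving out both tumor 7 and normal kidney 9 gave 10 higher and 3 lower genes, against 26.5% and 30.0% of all genes. Leaving out normal kidneys 5, 7 and 8 gave 10 higher and 5 lower, against 26.6% and 25.5%. Of the 17 genes that did not pass, 10 were called under at least 1 of the 33 alternative settings.

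**Figure D1:**
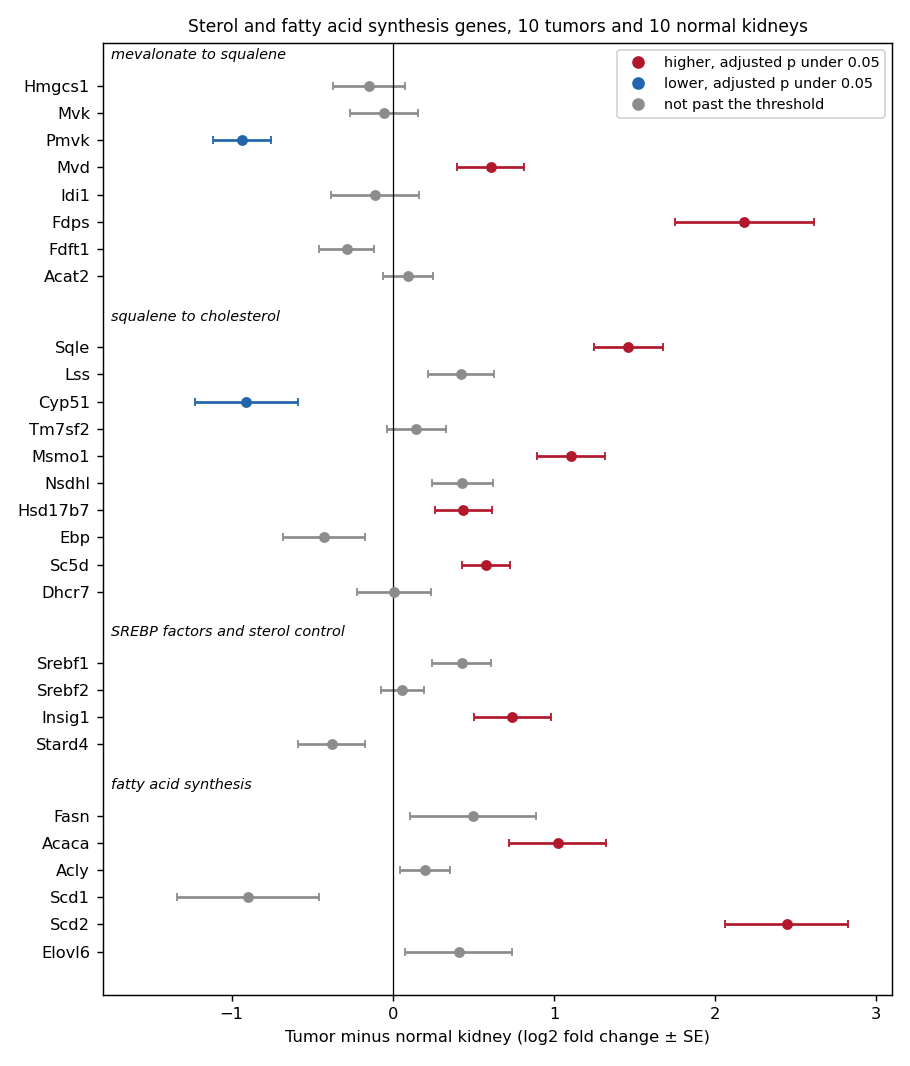
Log2 fold change, tumor minus normal kidney, of the 28 genes in 4 families. Points are estimates and bars are standard errors. Red points were higher in tumors and blue points lower (adjusted p under 0.05). Scd2, at 2.44, and Fdps, at 2.18, lie farthest to the right, and Pmvk, at -0.94, farthest to the left.

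The libraries with and without Xist were also compared separately, with 5 tumors and 5 normal kidneys on each side. In the libraries with Xist, 11 genes of the set were higher and 4 lower, against 23.0% and 25.8% of all genes. In the libraries without Xist, which held tumor 7 and normal kidneys 7, 8 and 9, 4 were higher and 1 was lower, against 10.1% and 8.59% of all genes. A test of the difference between both sides, an interaction term in the same kind of edgeR fit, called 0 of 15354 genes, with 1774 at an unadjusted p under 0.05. Within the set the smallest p was that of Mvd (1.11 ± 0.36 on the log2 scale, with Xist minus without, unadjusted p = 0.00531, adjusted p = 0.283). As Xist is made in female cells, the split follows the likely sex of the mice, which the labels do not give. This split was chosen after seeing the data, and Xist status is not a group of the study.

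Between acetyl-CoA and squalene, 2 of the 8 enzymes were higher in tumors, 1 was lower and 5 did not pass. Of all genes, 23.6% were higher and 23.8% lower. Acat2 joins 2 acetyl-CoA units and Hmgcs1 adds another to make HMG-CoA. Hmgcs1 (chr13:119690379-119708260, build mm10) was 78.7 to 306 CPM (median 211) in tumors and 109 to 307 CPM (median 256) in normal kidneys. The groups overlapped almost wholly, with tumor 7 the lowest of all 20 libraries. The log2 fold change was -0.15 ± 0.22 (adjusted p = 0.604, 95% interval -0.59 to 0.29). Acat2 was 36.4 to 88.2 CPM (median 66.6) in tumors and 45.6 to 78.3 CPM (median 59.2) in normal kidneys (log2 fold change 0.09 ± 0.16, adjusted p = 0.651). Of the 75-base words of its transcripts, 33.9% also occur in Acat3, so its count depends on how shared reads were assigned.

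The 3 enzymes that convert mevalonate to isopentenyl diphosphate went different ways. Mvk, which adds the first phosphate, did not pass (log2 fold change -0.05 ± 0.21, adjusted p = 0.853). Pmvk, which adds the second phosphate (chr3:89454541-89469013), was 4.86 to 10.5 CPM (median 6.72) in tumors and 9.26 to 24.1 CPM (median 13.1) in normal kidneys. In 7 tumors it lay below every normal kidney, and all 10 lay below the normal median. Its log2 fold change was -0.94 ± 0.18 (adjusted p = 0.000195), a level 1.91 times lower, and it stayed past the threshold in each subset by Xist (-0.76 and -1.13). Mvd, which removes the carboxyl group to give isopentenyl diphosphate (chr8:122433601-122443422), was 22.2 to 58.3 CPM (median 43.8) in tumors and 11.1 to 45.9 CPM (median 28.5) in normal kidneys. Tumors 2, 3, 4 and 6 exceeded every normal kidney, and tumors 7 and 9 lay below the normal median. Its log2 fold change of 0.61 ± 0.21 (adjusted p = 0.021) was 1.14 in the libraries with Xist and 0.05 in those without (adjusted p = 0.92), and it missed the threshold with upper-quartile factors (0.48, adjusted p = 0.0584).

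The next enzymes assemble the isoprenoid chain. Idi1, the isomerase of isopentenyl diphosphate, did not pass (log2 fold change -0.11 ± 0.28, adjusted p = 0.765). Fdps, which makes farnesyl diphosphate, had only 1 to 33 counts per normal kidney library and 18 to 115 per tumor, corresponding to 0.0575 to 1.64 CPM (median 0.614) and 0.768 to 6.16 CPM (median 3.19). Every tumor except tumor 7 exceeded every normal kidney, and the log2 fold change was 2.18 ± 0.43 (adjusted p = 0.00029). Another annotated gene, Gm43738, overlaps 26.7% of its exon bases on the same strand and had 0 counts in all 20 libraries. How reads in such an overlap were counted is not stated, so the Fdps level is uncertain. Fdft1, squalene synthase, which commits farnesyl diphosphate to sterols, was 22.4 to 53.5 CPM (median 34.4) in tumors and 32.1 to 63.8 CPM (median 41.5) in normal kidneys (log2 fold change -0.29 ± 0.17, adjusted p = 0.178). Its exons overlap those of Ctsb on the opposite strand over 18.3% of their bases. Ctsb was higher in every tumor than in every normal kidney (2.89 ± 0.24), and whether the counting used strand is not stated.

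Between squalene and cholesterol, 4 of the 10 enzymes were higher, 1 was lower and 5 did not pass. The shares of all genes were 23.6% higher and 23.8% lower. Sqle, squalene epoxidase, which adds the first oxygen and is a control point of the route (chr15:59315077-59331192), had the highest fold change of these enzymes. It was 56.0 to 217 CPM (median 156) in tumors and 33.7 to 88.2 CPM (median 57.6) in normal kidneys. Every tumor except tumor 7, at 56.0 CPM, exceeded every normal kidney. The log2 fold change was 1.46 ± 0.21 (adjusted p = 9.04e-06), or 2.75-fold, and it was 1.52 with Xist and 1.34 without. Lss, which closes squalene epoxide into lanosterol, was 19.3 to 47.9 CPM (median 34.7) in tumors and 11.1 to 40.6 CPM (median 25.3) in normal kidneys (0.42 ± 0.20, adjusted p = 0.0928). It passed without normal kidney 4 (0.51, adjusted p = 0.0429) and without tumor 9 (0.49, adjusted p = 0.048). Without normal kidney 9, its lowest library, it was 0.32 (adjusted p = 0.134).

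The enzymes that strip methyl groups from lanosterol moved in opposite directions. Cyp51, the lanosterol demethylase that acts first (chr5:4081145-4104746), was 29.5 to 84.0 CPM (median 42.9) in tumors and 28.6 to 256 CPM (median 89.6) in normal kidneys. All 10 tumors lay below the normal median, but normal kidneys 7 and 8, at 28.6 and 30.1 CPM, were as low as the lowest tumors, and normal kidney 6 was the highest library. Its log2 fold change of -0.91 ± 0.32 (adjusted p = 0.0233) was -1.23 without normal kidneys 5, 7 and 8 and -0.61 without normal kidney 6, where it no longer passed (adjusted p = 0.0709). Msmo1, the methyl sterol oxidase of the following steps (chr8:64718139-64733792), was 51.8 to 148 CPM (median 85.4) in tumors and 21.2 to 61.2 CPM (median 37.5) in normal kidneys. Every tumor except tumor 7 exceeded every normal kidney. The log2 fold change was 1.10 ± 0.21 (adjusted p = 0.00019), or 2.15-fold, and both subsets by Xist passed (1.14 and 1.01).

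Msmo1 works together with Nsdhl and Hsd17b7, which complete each removal of a methyl group. Nsdhl, an X-linked gene, was 32.0 to 76.4 CPM (median 59.7) in tumors and 25.7 to 60.1 CPM (median 39.7) in normal kidneys, and 5 tumors exceeded every normal kidney, yet its log2 fold change of 0.43 ± 0.19 did not pass (adjusted p = 0.0661). It was called under 9 of the 33 alternative settings, among them without tumor 7 (0.49, adjusted p = 0.026). Hsd17b7 was 29.4 to 59.4 CPM (median 46.0) in tumors and 15.1 to 47.9 CPM (median 33.1) in normal kidneys. It also had 5 tumors above every normal kidney and sat on the threshold (0.44 ± 0.18, adjusted p = 0.0483). It missed the threshold under 20 of the 33 alternative settings, all with the same direction. Tm7sf2, which reduces the double bond left by Cyp51, did not pass (log2 fold change 0.15 ± 0.18, adjusted p = 0.533). Its exons overlap Vps51 on the same strand over 12.1% of their bases.

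The last steps move and reduce double bonds in the ring. Ebp, the sterol isomerase, also X-linked, was 33.2 to 65.3 CPM (median 52.0) in tumors and 33.6 to 199 CPM (median 55.4) in normal kidneys (-0.43 ± 0.26, adjusted p = 0.179). Normal kidney 9 alone was above 70.2 CPM, and without it the log2 fold change was -0.092. Sc5d, which introduces the double bond of the B ring (chr9:42251595-42264256), was 27.4 to 74.4 CPM (median 54.1) in tumors and 27.1 to 45.7 CPM (median 36.6) in normal kidneys. Tumors 7 and 9 lay within the normal range and the other 8 lay above it (0.58 ± 0.15, adjusted p = 0.00296). Dhcr7, which makes cholesterol from 7-dehydrocholesterol, had nearly equal medians of 17.6 and 18.1 CPM in tumors and normal kidneys (0.01 ± 0.23, adjusted p = 0.981, 95% interval -0.44 to 0.46).

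**Figure D2:**
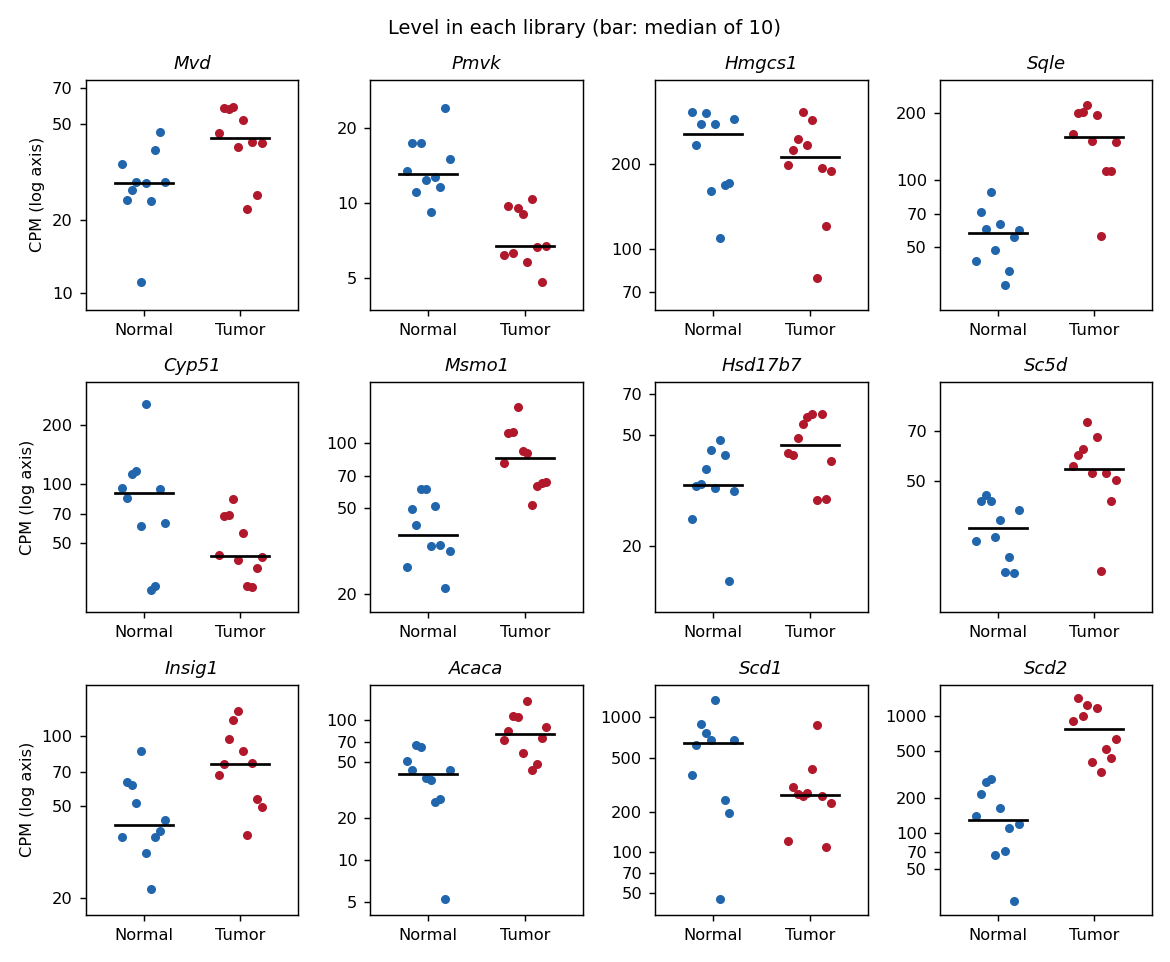
CPM, on log axes, of 12 members in each of the 10 normal kidneys (blue) and 10 tumors (red). Bars are medians of 10 libraries. For Sqle and Msmo1 every tumor except tumor 7 lies above the normal kidneys, Scd2 shows no overlap, and Scd1 shows a wide spread in both groups.

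Promoter sequences of members that rose or moved together show which of these genes carry letters known from SREBP binding close to their start. Of the 28 genes, 22 are in the RefSeq table of promoters (build GRCm38.p6), which holds the 250 bases before and 50 bases after each start. Sqle, Scd1, Scd2, Fdps, Fdft1 and Stard4 are not in it. The letters TCACNCCA, a core of the sterol regulatory element, were searched on both strands and occurred in 3 of the 22 windows (Hmgcs1, Msmo1 and Srebf2), against 4.97% of the windows of all 27025 symbols. The letters CCAAT, bound by NF-Y, a factor that works beside SREBPs, occurred in 19 of 22, against 41.1% of all. CACGTG, an E-box, occurred in 4 (Hsd17b7, Sc5d, Dhcr7 and Insig1), against 8.09%. TGACNNNGC, the core of the antioxidant response element bound by NRF2, which Keap1 restrains, occurred in 4 (Mvk, Pmvk, Hsd17b7 and Dhcr7), against 14.0%. The sterol element letters occurred in 1 of 6 higher genes with a window, 2 of 14 that did not pass and 0 of 2 lower genes. The CCAAT letters occurred in 5 of 6, 12 of 14 and 2 of 2. The 250 bases before the start are shown for 4 genes, on the strand of the gene, with capitals for TCACNCCA, CCAAT and CACGTG on either strand (ATTGG is CCAAT on the other strand). No sterol element match overlapped a CCAAT match. Starts here are those of RefSeq, which differ from the gene bounds given for the counts. By those bounds Msmo1 starts at 64733792, so most of its window, with all its marked letters, lies inside the gene. The Insig1 window ends past the gene start of 28071363. A match is a run of letters and no measurement of binding.
Hmgcs1 (chr13:119690101-119690350, plus strand), which did not pass: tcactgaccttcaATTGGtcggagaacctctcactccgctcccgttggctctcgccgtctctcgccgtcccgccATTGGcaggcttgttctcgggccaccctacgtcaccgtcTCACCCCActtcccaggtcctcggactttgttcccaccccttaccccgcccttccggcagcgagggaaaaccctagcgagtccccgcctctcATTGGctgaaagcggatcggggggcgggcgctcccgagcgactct
Msmo1 (chr8:64733579-64733828, minus strand), which rose: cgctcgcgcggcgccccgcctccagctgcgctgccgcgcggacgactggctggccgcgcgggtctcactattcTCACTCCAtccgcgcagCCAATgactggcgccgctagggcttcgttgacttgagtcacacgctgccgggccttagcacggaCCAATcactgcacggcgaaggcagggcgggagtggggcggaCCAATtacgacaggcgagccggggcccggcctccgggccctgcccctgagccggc
Insig1 (chr5:28071162-28071411, plus strand), which rose: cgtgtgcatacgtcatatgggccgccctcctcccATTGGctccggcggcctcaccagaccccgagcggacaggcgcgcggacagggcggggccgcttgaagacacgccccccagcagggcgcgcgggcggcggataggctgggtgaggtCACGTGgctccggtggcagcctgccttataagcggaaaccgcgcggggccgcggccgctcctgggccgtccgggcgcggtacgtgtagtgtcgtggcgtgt
Sc5d (chr9:42264301-42264550, minus strand), which rose: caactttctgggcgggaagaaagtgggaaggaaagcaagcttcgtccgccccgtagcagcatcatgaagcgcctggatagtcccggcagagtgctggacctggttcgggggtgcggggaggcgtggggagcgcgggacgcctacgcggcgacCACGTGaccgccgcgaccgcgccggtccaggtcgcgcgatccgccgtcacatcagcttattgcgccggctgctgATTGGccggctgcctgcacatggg
Hmgcs1 and Msmo1 each hold the sterol element letters, starting 137 and 177 bases before the RefSeq start, with 3 CCAAT matches. In Msmo1 these begin 160, 96 and 55 bases before the start, and in Hmgcs1 237, 176 and 45. Insig1 and Sc5d hold 1 CCAAT match and 1 E-box each and no TCACNCCA. Of the 3 genes with the sterol element letters, Msmo1 was higher in tumors and Hmgcs1 and Srebf2 did not pass.

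Of the 4 control genes, only Insig1 passed. Srebf2 (chr15:82147181-82205379) was 99.0 to 144 CPM (median 128) in tumors and 68.7 to 159.7 CPM (median 119.8) in normal kidneys (log2 fold change 0.06 ± 0.13, adjusted p = 0.735, 95% interval -0.20 to 0.32). Srebf1 (chr11:60199089-60222581), counted over all its transcripts, was 69.2 to 117 CPM (median 82.4) in tumors and 25.4 to 109 CPM (median 56.8) in normal kidneys. All 10 tumors lay above the normal median, but only tumor 2 lay above every normal kidney, and the log2 fold change was 0.43 ± 0.18 (adjusted p = 0.0576). It was called under 6 of the 33 alternative settings. Among them were limma-voom (0.51, adjusted p = 0.0289) and the edgeR fit with Xist status as a term (0.47, adjusted p = 0.0165). It also passed without normal kidney 3 (0.56, adjusted p = 0.00873) and without normal kidney 2 (0.48, adjusted p = 0.041). Normal kidney 9 was the lowest library for both factors, and without it Srebf1 was 0.33 (adjusted p = 0.0695).

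Insig1 (chr5:28071363-28078662) is both a brake on SREBP processing and one of its targets. It was 37.3 to 129 CPM (median 76.2) in tumors and 22.0 to 86.6 CPM (median 41.2) in normal kidneys. Tumors 3, 4 and 5 lay above every normal kidney. Its log2 fold change was 0.74 ± 0.24 (adjusted p = 0.014), or 1.67-fold, with closely similar values of 0.75 and 0.68 in the libraries with and without Xist, the second short of the threshold (adjusted p = 0.0646). Stard4, a cytosolic carrier of sterols, had every tumor below the normal median (36.4 to 84.6 CPM with median 67.7 in tumors, 29.9 to 122 CPM with median 86.2 in normal kidneys), and its log2 fold change of -0.38 ± 0.21 did not pass (adjusted p = 0.141). Without normal kidneys 5, 7 and 8 it was -0.53 (adjusted p = 0.0235), and without normal kidney 7 alone -0.48 (adjusted p = 0.0278).

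In fatty acid synthesis, 2 of the 6 enzymes were higher in tumors and none was lower, beside 23.6% and 23.8% of all genes. Acly, which cleaves citrate to acetyl-CoA, was 229.6 to 411 CPM (median 281) in tumors and 168 to 403 CPM (median 242) in normal kidneys (0.20 ± 0.15, adjusted p = 0.301). Acaca, which carboxylates acetyl-CoA to malonyl-CoA (chr11:84129672-84401651), was 43.8 to 138 CPM (median 79.1) in tumors and 5.22 to 66.7 CPM (median 41.1) in normal kidneys. In 7 tumors it exceeded every normal kidney, and normal kidney 9 was far below all others. The log2 fold change was 1.02 ± 0.30 (adjusted p = 0.00813), and 0.88 without normal kidney 9 (adjusted p = 0.00221). The processed pseudogene Gm5182 holds 26.2% of its 75-base words, so that shared reads make the level uncertain. Fasn, fatty acid synthase, varied widely in both groups (87.0 to 439.8 CPM with median 265 in tumors, 24.8 to 354 CPM with median 180.4 in normal kidneys) (log2 fold change 0.50 ± 0.39, adjusted p = 0.306, 95% interval -0.26 to 1.26). Elovl6, which lengthens palmitate, likewise did not pass (0.41 ± 0.33, adjusted p = 0.323).

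The stearoyl-CoA desaturases Scd1 and Scd2 make monounsaturated fatty acids and lie near each other on chromosome 19 (chr19:44394451-44407709 and chr19:44293676-44306864). Scd2 had the largest fold change of the set. It was 332 to 1405 CPM (median 766) in tumors and 26.5 to 292 CPM (median 129) in normal kidneys, with no overlap, and the log2 fold change was 2.44 ± 0.38 (adjusted p = 1.96e-05), or 5.44-fold. The lowest tumor was tumor 7, and the value held in each subset by Xist (2.34 and 2.60). Scd1 was 109 to 876 CPM (median 264) in tumors and 44.8 to 1329 CPM (median 643) in normal kidneys, and 9 of 10 tumors lay below the normal median. The exception, tumor 7 at 876 CPM, was the tumor with the highest adipocyte markers, among them Adipoq, Plin1 and Lep at 65.9, 96.6 and 26.8 CPM, and the part of adipocytes in its Scd1 level was not tested.

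The log2 fold change of Scd1, -0.90 ± 0.44, did not pass (adjusted p = 0.0987). It did so without tumor 7 (-1.23, adjusted p = 0.0176) and without normal kidney 7, whose 44.8 CPM was the lowest of all libraries (-1.04, adjusted p = 0.0258). In the libraries with Xist it was -1.52 (adjusted p = 0.000196), and in the libraries without Xist, which holds both of these libraries, 0.095. The test of the difference between both sides gave -1.56 ± 0.79 (adjusted p = 0.451). Neither desaturase is much affected by shared sequence, with 3.15% of the 75-base words of Scd1 and 1.78% of those of Scd2 found in another gene.

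Per kilobase, Scd1 was the most abundant gene of the set in normal kidneys, with a median level of 133 CPM per kb against 23.7 for Scd2, and Scd2 the most abundant in tumors, with 140.4 against 54.7 for Scd1. Scd2 made up 7.99% to 58.3% of the summed Scd1 and Scd2 level per kilobase in normal kidneys (median 22.5%) and 25.1% to 86.8% in tumors (median 74.1%). Tumor 7, the lowest tumor, lay within the range of normal kidneys, and normal kidney 7 lay above the next normal kidney at 28.8% and within the range of tumors. This ratio was computed after the levels were seen and has no test. Next in level per kilobase in tumors came Acly (53.2) and Hmgcs1 (46.0). Fdps had the lowest counted level of the 28 genes in both groups, but its level is uncertain because of the overlap with Gm43738.

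**Figure D3:**
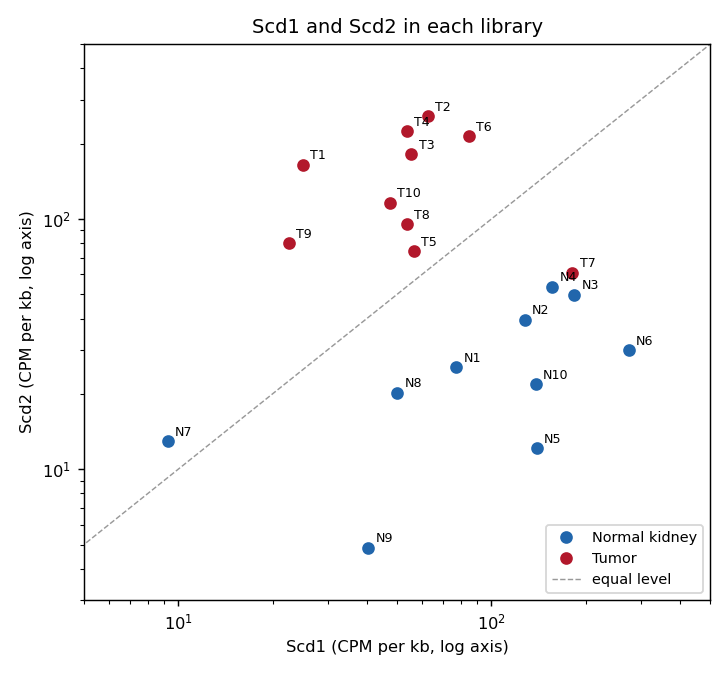
Scd2 against Scd1 in CPM per kb, on log axes, for each normal kidney (blue, N) and tumor (red, T). On the dashed line both levels are equal. Of the tumors 9 lie above it and tumor 7 lies below it, and of the normal kidneys 9 lie below it and normal kidney 7 lies above it.

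Relations between single members were computed over the 10 tumors from log2 CPM for 8 pairs, with 2-sided permutation tests of 100000 resamples and adjustment over the 8 pairs. Hmgcs1 and Sqle, which work at the start and in the middle of the sterol route, rose and fell together across tumors (r = 0.93, adjusted permutation p = 0.00096, rho = 0.90, adjusted permutation p = 0.00436). So did Insig1 and Hmgcs1 (r = 0.85, adjusted permutation p = 0.0032, rho = 0.87, adjusted permutation p = 0.00512), and Fasn and Acaca, successive enzymes of fatty acid synthesis (r = 0.95, adjusted permutation p = 0.00048, rho = 0.89, adjusted permutation p = 0.00436). Unadjusted permutation p-values of r were 0.00024, 0.0012 and 6e-05.

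Without the 2 tumors farthest from the median of the first gene, r was 0.75 for Hmgcs1 and Sqle (adjusted permutation p = 0.063), 0.83 for Insig1 and Hmgcs1 (0.0412) and 0.88 for Fasn and Acaca (0.0282). The relation of Srebf2 with Sqle (r = 0.74, adjusted permutation p = 0.0235, rho = 0.71, adjusted permutation p = 0.0522) rested on tumors 7 and 8, without which r was 0.08. That of Insig1 with Sqle (r = 0.73, adjusted permutation p = 0.0235, rho = 0.67, adjusted permutation p = 0.0622) no longer passed without tumor 7 (r = 0.50). The other 3 pairs did not pass. These were Srebf2 with Hmgcs1 (r = 0.53, rho = 0.56), Srebf1 with Fasn (r = 0.52, rho = 0.52) and Srebf1 with Scd1 (r = -0.11, rho = 0.03), with adjusted permutation p-values of r of 0.131, 0.131 and 0.742 and of rho of 0.13, 0.152 and 0.944. Without tumors 2 and 10, the farthest in Srebf1, r was 0.79 for Srebf1 with Fasn (permutation p = 0.0315, adjusted 0.063) and -0.44 for Srebf1 with Scd1 (adjusted permutation p = 0.353). Each subset by Xist held 5 tumors, too few for a correlation.

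**Figure D4:**
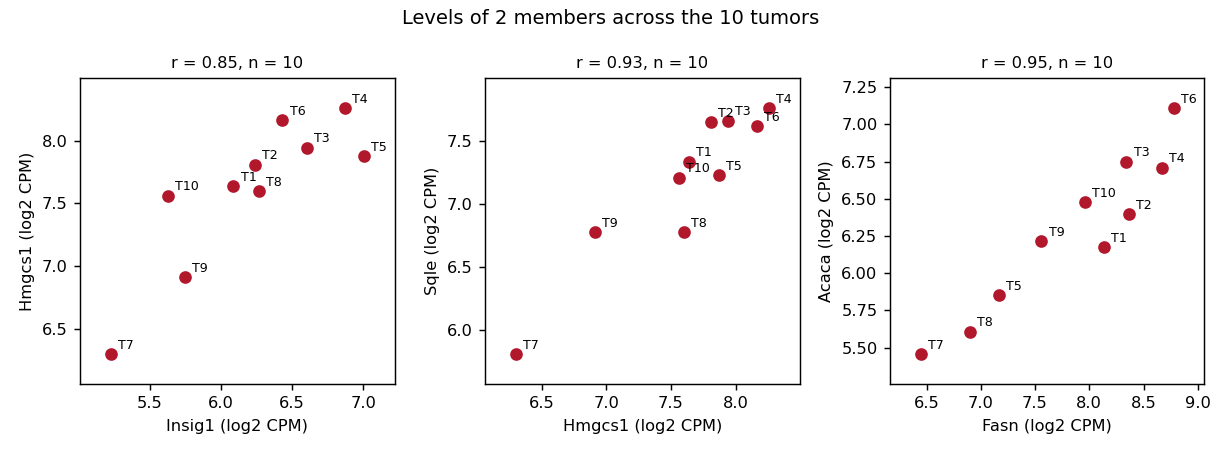
Log2 CPM of Hmgcs1 against Insig1, Sqle against Hmgcs1 and Acaca against Fasn in the 10 tumors. Each point is a tumor, labelled by its number. Tumor 7 lies at the lower left of each panel.

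The summed level of the 18 sterol enzymes was 495 to 1359 CPM in tumors, with a median of 973, and 557 to 1059.5 CPM in normal kidneys, with a median of 889.5. Tumor 7 was the lowest tumor and normal kidney 7 the lowest normal kidney. The 5 tumors with Xist lay at 1013 to 1359 CPM, above the 5 without Xist at 495 to 932 CPM, whereas the normal kidneys with Xist (683 to 1059.5 CPM) and without (557 to 903 CPM) overlapped. The tumors without Xist include tumor 7. No test was run on this difference in summed levels, and the labels give no such groups.

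**Figure D5:**
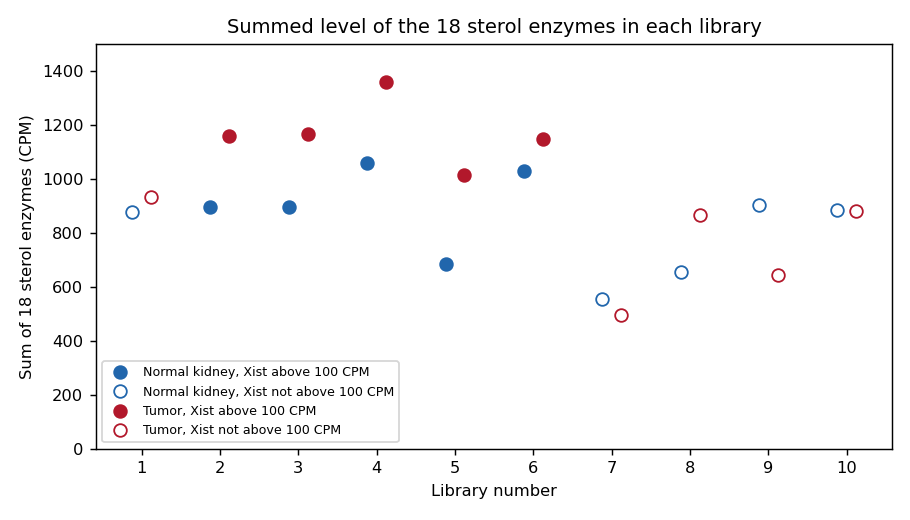
Sum of the CPM of the 18 sterol enzymes in each library, by library number, for normal kidneys (blue) and tumors (red). Filled points are libraries with Xist above 100 CPM. The 5 filled tumor points, at 1013 to 1359 CPM, lie above the 5 open ones.

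Other genes of the same pathways were taken from 4 lists with 58 genes, of which 55 passed the filter. Of these, 19 were higher and 12 lower in tumors, against the background shares of 23.6% and 23.8% of all genes, and their median log2 fold change was 0.14. Among 8 genes of SREBP processing and turnover, 3 were higher and 1 was lower. The higher genes were Erlin2, of the complex that helps degrade sterol-regulated proteins (0.57 ± 0.11, adjusted p = 0.000256), Insig2, the relative of Insig1 (0.55 ± 0.15, adjusted p = 0.00396), and Mbtps2, the protease that makes the second cut in SREBPs (0.53 ± 0.16, adjusted p = 0.00871). Mbtps1, the protease of the first cut, was lower (-0.46 ± 0.13, adjusted p = 0.00562). Scap, the escort of SREBPs, did not pass (0.14 ± 0.08, adjusted p = 0.13).

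Among 8 genes of the isoprenoid branches, which draw on farnesyl diphosphate, 2 were higher and 2 lower, against 23.6% and 23.8% of all genes. Nus1, a subunit of the dolichol-making enzyme, was 277 to 659 CPM (median 532) in tumors and 219 to 360.3 CPM (median 275) in normal kidneys (0.86 ± 0.16, adjusted p = 0.000113), while its partner subunit Dhdds was lower (-0.32 ± 0.10, adjusted p = 0.0106). Fntb, the beta subunit of farnesyltransferase, was higher (0.61 ± 0.17, adjusted p = 0.00556), and Ggps1, which makes geranylgeranyl diphosphate, was lower (-0.25 ± 0.09, adjusted p = 0.0317), a call lost without normal kidney 5 (adjusted p = 0.0596), tumor 2 (0.0529) or tumor 10 (0.0546).

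Of 30 further genes of fatty acid synthesis, elongation and desaturation, 27 passed the filter. Of these 10 were higher and 6 were lower, against 23.6% and 23.8% of all genes. Me1, malic enzyme, which supplies NADPH, was 386 to 694 CPM (median 539) in tumors and 194 to 294 CPM (median 277) in normal kidneys without overlap (1.05 ± 0.11, adjusted p = 1.31e-07). Elovl2, an elongase of polyunsaturated fatty acids (1.38 ± 0.27, adjusted p = 0.000212), and Mid1ip1, an activator of acetyl-CoA carboxylase (1.17 ± 0.18, adjusted p = 1.93e-05), were higher too. Acacb, the second acetyl-CoA carboxylase, whose malonyl-CoA restrains fatty acid oxidation, had the largest fall of this list, from 19.6 to 79.4 CPM (median 65.0) in normal kidneys to 2.28 to 20.7 CPM (median 6.00) in tumors (-2.71 ± 0.37, adjusted p = 4.21e-06). It moved opposite to Acaca. Thrsp, a lipogenic protein related to Mid1ip1 (-2.58 ± 0.54, adjusted p = 0.000448), and Acsl1, which activates long-chain fatty acids (-1.45 ± 0.21, adjusted p = 7.91e-06), were lower. Thrsp is abundant in adipocytes. Of 7 adipocyte markers 5 passed the filter and none was called, against 23.6% of all genes higher and 23.8% lower. Summed over the 7, they were 5.41 to 398 CPM in tumors (median 43.2) and 4.46 to 199.9 CPM in normal kidneys (median 104.7). Tumor 7 held the tumor maximum. The 2 without a test, Ucp1 and Cidea, had medians of 0 and 0.054 CPM in tumors and 3.88 and 4.39 in normal kidneys. Lep alone of the 7 had a higher median in tumors. The part of adipocytes in the Thrsp difference was not tested.

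Of 12 genes of the liver X receptors, sterol efflux, esterification and hydroxylation, 4 were higher and 3 lower, against 23.6% and 23.8% of all genes. Soat1, which esterifies cholesterol for storage, was 96.6 to 169 CPM (median 116) in tumors and 17.2 to 32.4 CPM (median 22.5) in normal kidneys without overlap (2.36 ± 0.12, adjusted p = 3.71e-12). Npc2, which carries cholesterol out of lysosomes, was 356 to 609 CPM (median 489) and 101 to 248 CPM (median 120.2), again without overlap (1.83 ± 0.16, adjusted p = 6.2e-09). Abca1, the efflux pump, was higher in 9 tumors than in any normal kidney (1.84 ± 0.26, adjusted p = 5.97e-06). The lower genes were Nr1h3, the liver X receptor alpha (-1.01 ± 0.26, adjusted p = 0.00364), and the oxysterol hydroxylases Ch25h (-1.83 ± 0.62, adjusted p = 0.0187) and Cyp7b1 (-3.64 ± 0.94, adjusted p = 0.00321). Both hydroxylases were highest in normal kidney 9, Ch25h at 30.9 CPM against a normal median of 2.58 and Cyp7b1 at 83.5 CPM against 2.53. Without that library Ch25h no longer passed (-1.11, adjusted p = 0.0851) and Cyp7b1 was -2.22 (adjusted p = 0.0187), and without tumor 7 Cyp7b1 was -5.13 (adjusted p = 5.69e-05). Macrophages express Soat1, Abca1 and Npc2. Of 7 macrophage markers 5 were higher in tumors, beside 23.6% of all genes. The 7 summed to 252 to 1460.2 CPM in tumors against 109.6 to 385 in normal kidneys. The part of macrophages in the Soat1, Abca1 and Npc2 differences was not tested.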

How the data were processed

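Total RNA was taken with Trizol from frozen, pulverized tissue. Novogene prepared poly(A) libraries, sequenced them as read pairs and counted reads per gene on build mm10, as named in the submitters' processing notes. The authors deposited these raw counts without normalization. The aligner, the counter and the use of strand are not given in the sources used here. Groups and replicate numbers came from the sample labels. All 20 columns of counts were used, 0 were left unused and 0 rows named no gene. The 28 members and the gene lists were chosen with earlier results of these data known.

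Counts were analysed in R 4.3.3 with edgeR 4.0.16: filterByExpr with a count minimum of 10, TMM factors, and the quasi-likelihood test of tumors against normal kidneys over all 20 libraries with no covariate. Benjamini-Hochberg adjustment covered the 15354 genes tested, and a gene was called at an adjusted p under 0.05. Standard errors were taken as the size of the log2 fold change over the root of the F statistic, and 95% intervals as 1.96 standard errors to each side. CPM used TMM-scaled totals, log2 CPM a prior count of 2, and levels between genes were compared per kilobase of the deposited gene length. The test was also run on simulated counts built from the normal kidney means and the fitted dispersions, with an outcome not reported here. Alternatives were RLE, upper-quartile or no scaling factors, no filter, DESeq2 1.42.0, limma-voom (limma 3.58.1) with and without quality weights, a block for the replicate number, each library left out, the libraries that stood apart left out and, added after seeing the data, the split by Xist. Named pathway genes were, for each list, up to 3 called genes with the largest rise and 3 with the largest fall, with a group mean of 1 CPM or more; Scap was added after its value was seen. Shared sequence was measured as 75-base words of GENCODE M21 transcripts found in another gene. Motifs were searched in RefSeq promoters (GRCm38.p6) with Python. The study collected the samples from a cohort of 10 mice, but whether each library of a group came from a different mouse is not given in the sources used here, so p-values measure the spread between these samples. Total counts were 14737516 to 26679704 per library, and read counts are not counts of independent molecules.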

Additional observations from a re-analysis of the deposited data

Results flagged for a closer look

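Each member's log2 CPM was examined within the 10 tumors and within the 10 normal kidneys for a single library far from the rest, by Dixon's ratio at its 95% critical value. In 6 of the 56 sets of 10 libraries one stood apart; chance flags about 1 in 20. Tumor 7 was far below the other tumors for Sqle (5.81 log2 CPM, others 6.78 to 7.76) and for Sc5d (4.78 log2 CPM, others 5.46 to 6.22). Tumor 2 was far above the others for Srebf1 (6.88 log2 CPM, others 6.12 to 6.44). Among normal kidneys, number 9 was far below the rest for Acaca (2.41 log2 CPM, others 4.70 to 6.06) and far above for Ebp (7.64 log2 CPM, others 5.08 to 6.14), and number 5 was far below for Mvd (3.48 log2 CPM, others 4.59 to 5.52). Without the library named, the log2 fold change was 1.55 for Sqle, 0.65 for Sc5d, 0.36 for Srebf1, 0.88 for Acaca, -0.092 for Ebp and 0.51 for Mvd. Of these only the value of Ebp moved by over 1.5 times.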

How the results depend on the processing

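Of the 11 called members, Pmvk, Msmo1, Sqle and Scd2 stayed past the threshold under all 33 alternatives, Fdps, Sc5d and Acaca under all but the libraries without Xist alone, and none changed direction. The members higher in tumors numbered 7 to 13 in all alternatives but 1. They numbered 7 with upper-quartile factors or library totals (19.5% and 18.6% of all genes higher). With quality weights (34.8%) or the replicate block (25.9%) they numbered 13. In the libraries without Xist alone 4 were higher (10.1% of all genes). There 2 sterol enzymes and 7 of the other pathway genes were higher, and 5 of the latter were lower. The members lower in tumors numbered 4 with upper-quartile factors (30.3% of all genes lower) and with quality weights (35.2%). They also numbered 4 in the libraries with Xist (25.8%), and 5 without normal kidneys 5, 7 and 8 (25.5%). They numbered 1 with limma-voom (23.4%) and in the libraries without Xist (8.59%). With the last 2 settings 1 sterol enzyme was lower. Leaving out 1 library gave 8 to 11 higher and 1 to 4 lower members, 5 to 8 higher and 1 to 2 lower sterol enzymes, and 17 to 20 higher and 11 to 15 lower other pathway genes. Of all genes, 22.1% to 26.1% were higher and 22.4% to 27.1% lower in these fits. Without normal kidney 6, where Cyp51 was lost, 1 member was lower (22.8% of all genes), and without normal kidney 7, 4 were (24.6%). Upper-quartile factors and library totals moved the median of all genes to -0.14 and -0.14, and the higher share of all calls from 49.8% to 39.2% and 38.5%. Members whose main value did not pass changed sign as follows: Hmgcs1 0.019 (libraries with Xist). Mvk 0.040 (limma-voom), 0.024 (the replicate block), 0.018 (libraries with Xist), -0.14 to 0.050 (leaving out 1 library). Idi1 -0.21 to 0.0086 (leaving out 1 library). Acat2 -0.031 (upper-quartile factors), -0.040 (library totals), -0.29 (libraries without Xist). Tm7sf2 -0.052 (normal kidneys 5, 7 and 8 left out). Ebp 0.018 (libraries with Xist). Dhcr7 -0.018 (RLE factors), -0.12 (upper-quartile factors), -0.16 (library totals), -0.018 (DESeq2), -0.092 (quality weights), -0.033 (tumor 7 and normal kidney 9 left out), -0.19 (normal kidneys 5, 7 and 8 left out), -0.12 (libraries with Xist), -0.076 to 0.088 (leaving out 1 library). Srebf2 -0.061 (upper-quartile factors), -0.093 (library totals), -0.091 (libraries with Xist), -0.018 to 0.11 (leaving out 1 library). Scd1 0.095 (libraries without Xist). The cause was not tested.

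A replicate block gave 13 higher and 3 lower members (46.4% and 10.7% of them), against 25.9% and 25.3% of all genes. It lost no called member and added Lss (0.46, adjusted p = 0.00137 by edgeR), Nsdhl (0.45, 0.0203), Srebf1 (0.50, 0.0187), Elovl6 (0.61, 0.0276) and Fdft1 (-0.29, 0.0327). Deviations of same-numbered libraries correlated at 0.191 to 0.377 except for number 9 (-0.143), 8 of 10 tumors correlated best with their own number, and Xist was high in the same numbers of both groups; the labels do not say that a number marks a mouse, so this is a hint from the data. Across tumors, leaving out the 2 farthest tumors gave r = -0.10 for Srebf2 with Hmgcs1, 0.080 for Srebf2 with Sqle, 0.68 for Insig1 with Sqle, 0.75 for Hmgcs1 with Sqle, 0.79 for Srebf1 with Fasn and -0.44 for Srebf1 with Scd1. Without tumor 7, r was 0.054, 0.48, 0.50 and 0.83 for the first 4 of these pairs, 0.062 for Srebf1 with Scd1, 0.51 for Srebf1 with Fasn, 0.75 for Insig1 with Hmgcs1 and 0.92 for Fasn with Acaca.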

Other observations

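Acat3, whose transcripts share sequence with those of Acat2, is no member of the set and was named after its values were seen. Acat3 was 32.0 to 104 CPM (median 57.8) in tumors and 5.39 to 72.7 CPM (median 12.6) in normal kidneys (1.10 ± 0.44, adjusted p = 0.0449 by edgeR). Acat2 made up 42.4% to 56.8% of the summed Acat2 and Acat3 CPM in tumors. In normal kidneys 1, 2, 3, 4, 6, 9 and 10 it made up 81.2% to 89.7%, and in normal kidneys 5, 7 and 8, those with high Spp1, 46.9% to 52.7%, within the range of the tumors. These shares were computed after the levels were seen and have no test.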
